A study of Rattus norvegicus with 3 samples.

Results

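Collagens and laminins are the structural proteins of basement membranes and of connective tissue fibrils, and their genes were followed through 3 libraries of rat retinal RNA. All 3 came from Sprague-Dawley rats at postnatal day 60, and each group has 1 library. CTL is retina labelled as untreated; the treatment protocol shared by all samples describes a sham operation, with a needle in the anterior chamber at 2.66 kPa, and which of these holds for CTL is not settled. HIOP (high intraocular pressure) is retina collected 12 h after ischemia, produced by raising the pressure in the eye to 110 mmHg and keeping it there during 60 min before blood flow returned. HIOP_GSK is retina after the same procedure with a drug, named only as GSK, given 24 h ahead of it through the eye's front chamber. An eye injected with vehicle is not described, and the labels give neither the drug's identity nor the number of animals behind a library.

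Genes were chosen by symbol, as collagen alpha chains (Col followed by a number, a and a number) or laminin chains (Lama, Lamb or Lamc followed by a number). Of 32883 genes, 54 matched. Of these, 52 chains are described here, and Col4a3bp, which encodes a ceramide transfer protein, matched by name alone. Col4a3bp had 2655, 2721 and 2365 counts in CTL, HIOP and HIOP_GSK and is left out of what follows. The 52 chains fall into 17 of the basement membrane (collagen IV, the laminins, and the multiplexins Col15a1 and Col18a1) and 35 other collagens. CPM is a count scaled to library size. Of the 52, 45 chains passed 1 CPM in some library and were compared; 16 of these belong to the basement membrane and 29 to the other collagens. Lama3, Lamb4, Col21a1 and Col6a3 were not analysed here.

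A basement membrane is a thin sheet in which a laminin polymer, built from trimers of 1 alpha, 1 beta and 1 gamma chain, is joined by nidogen to a second network of collagen IV trimers. In the retina such sheets form the inner limiting membrane under the Müller cell endfeet, the sleeve around each capillary and part of Bruch's membrane under the pigment epithelium. Fibrillar collagens instead assemble into banded fibrils, thick and stiff in sclera and cornea and thin in the vitreous, where collagen II, V, XI and IX chains share the same fibril.

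The libraries CTL, HIOP and HIOP_GSK hold 16090064, 17221510 and 15132754 deposited counts. Because a group is a single library, differences could not be set against replicates and were not tested. A ratio is one of scaled counts, and the range after it is a 95% exact interval that covers counting error only, since the reads carry no molecular identifiers and copies of 1 molecule cannot be recognised. A gene is called higher or lower when the log2 ratio, with a prior count of 2, reaches 2-fold. The libraries are of retina, with summed rod markers at 30631, 28514 and 21068 CPM in CTL, HIOP and HIOP_GSK. Genes listed as markers of neighbouring tissues differed between the libraries too, and how much of each tissue was present was not tested. Lens markers summed to 1285, 3606 and 15275 CPM. Of 19, 14 were called higher in HIOP over CTL (73.7%, beside 9.00% of all genes). In HIOP_GSK over HIOP 17 were called higher and 1 lower (89.5% and 5.26%, beside 4.56% and 1.69%). Corneal epithelium markers summed to 631.9, 239.6 and 308.1 CPM. Of 11, 8 were called lower in HIOP over CTL (72.7%, beside 8.04%) and 9 higher in HIOP_GSK over HIOP (81.8%, beside 4.56%). The median log2 ratio of the 11 in HIOP_GSK over HIOP was 1.55, although their sum rose only from 239.6 to 308.1 CPM. This sum is thus led by genes that changed little, and their cell source was not tested. Pigment epithelium markers summed to 885.8, 367.2 and 407.9 CPM, with 8 of 10 called lower in HIOP (80%, beside 8.04%). Rlbp1, with 4143, 738 and 915 counts, is in this list and in that of Müller glia, so the sum is not of pigment epithelium alone. In bulk RNA, fewer cells of a type and less RNA per cell cannot be told apart.

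Per length, the most abundant chains were Col5a3, a minor fibrillar collagen chain, and Col4a1, the main chain of collagen IV. Levels are given as deposited TPM (transcripts scaled for gene length and library size), and the order of neighbours cannot be judged without replicates. Col5a3 stood at 80.3, 124.7 and 105 TPM in CTL, HIOP and HIOP_GSK. Col4a1 stood at 103, 84.1 and 53.2 TPM, so that it led in CTL and came after Col5a3 in the other libraries. Col4a2 had 56.4, 49.6 and 28.9 TPM and Col4a4 had 74.5, 36.3 and 19.4 TPM. Col18a1 had 26.95, 47.0 and 41.9 TPM and Lamc1, the common laminin gamma chain, had 20.8, 44.8 and 39.4 TPM. The collagen IX and XI chains Col9a1 (47.6, 11.1 and 11.7 TPM) and Col11a1 (37.7, 13.4 and 10.9 TPM) ranked 5 and 6 among the chains in CTL, and ranked 13 and 7 in HIOP and 11 and 13 in HIOP_GSK. Summed over the 52 chains, the level was 724, 594 and 507 TPM.

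**Figure D1:**
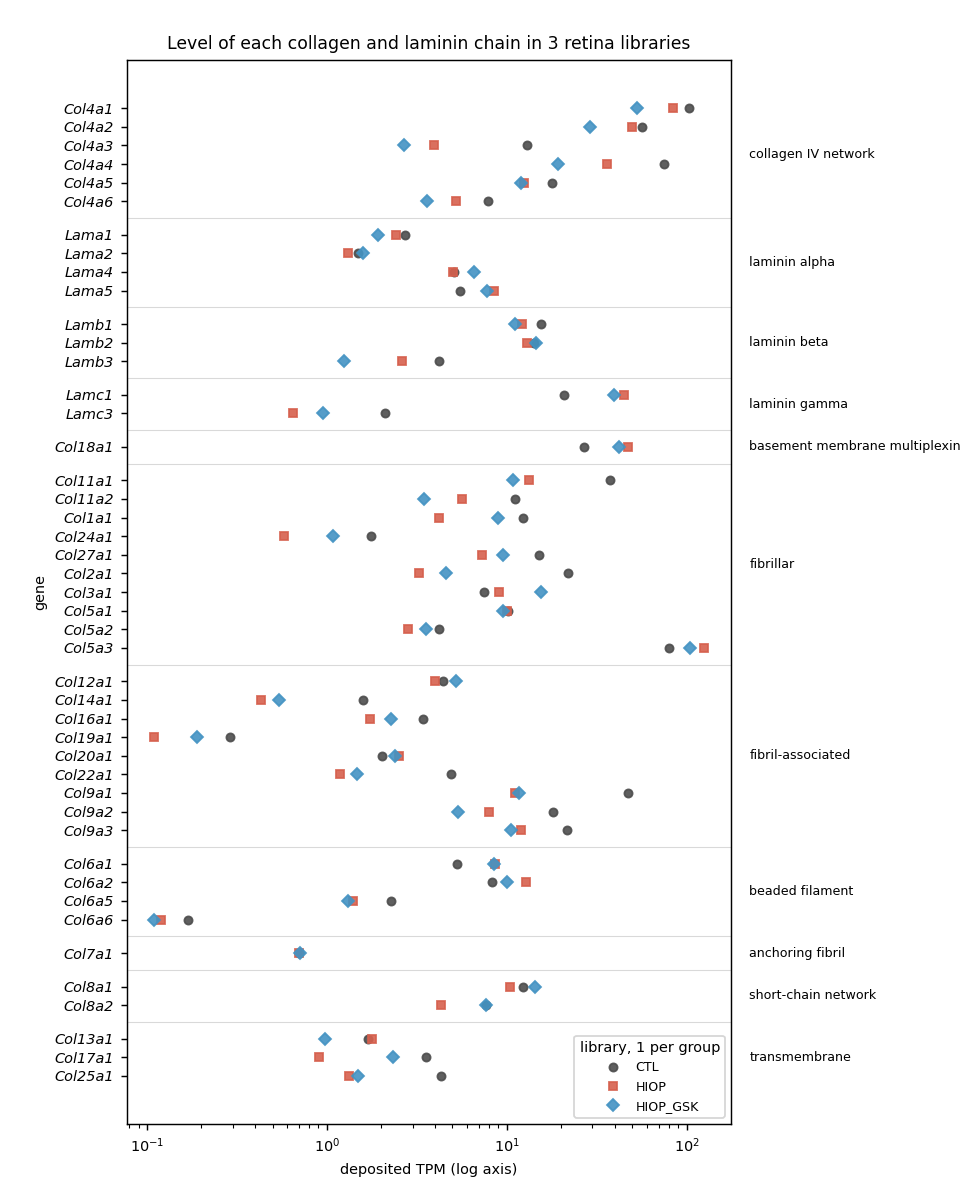
Deposited TPM of the 45 compared chains (x axis, log scale) for each gene (y axis, grouped by role) in the libraries CTL, HIOP and HIOP_GSK, 1 point per library and gene. Col5a3 and Col4a1 lie farthest right at 80.3 to 124.7 and 53.2 to 103 TPM, and the collagen IX and collagen II points of CTL lie to the right of those of HIOP and HIOP_GSK.

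The comparison of HIOP with CTL describes the matrix genes 12 h after ischemia. The laminin gamma chain Lamc1 was higher in HIOP, the main collagen IV pair was nearly level, and many fibrillar, fibril-associated and membrane-bound collagens were lower. Of the 45 chains, 1 was called higher, beside 9.00% of all 15543 genes compared, and 14 were called lower (31.1% of the chains), beside 8.04% of all genes. The median log2 ratio of the chains was -0.51, and that of all genes was 0. Counting error alone left 8 chains with an interval above 1 and 29 with an interval below 1. The basement membrane chains had 1 called higher and 2 lower of 16, with a median of -0.15. The other collagens had none called higher and 12 called lower of 29, with a median of -0.84.

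**Figure D2:**
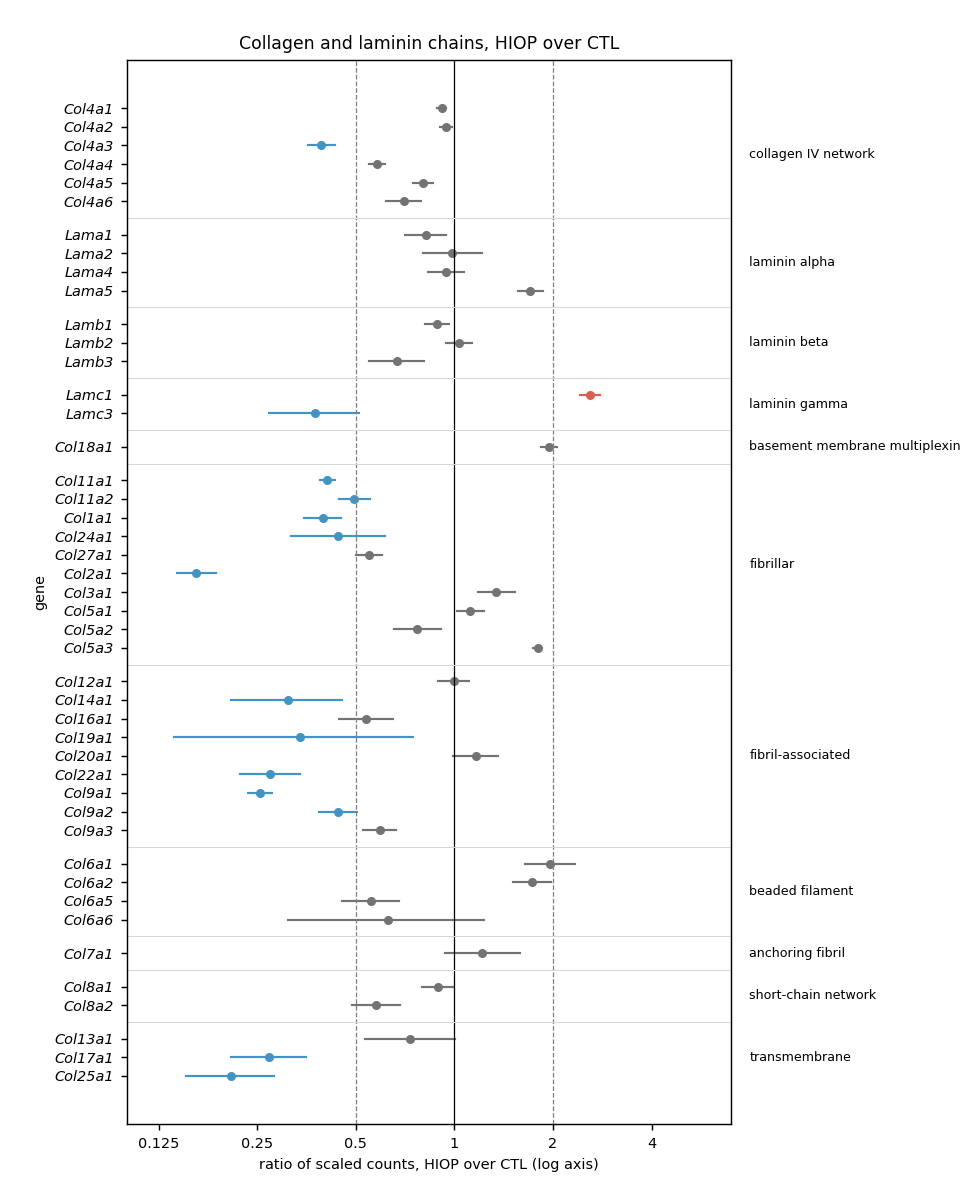
Ratio of scaled counts in HIOP over CTL (x axis, log scale) for the 45 compared chains (y axis, grouped by role), with points for the ratio and bars for the 95% counting interval; red marks chains called higher, blue chains called lower, grey the rest, and dashed lines mark 2-fold. Lamc1 is the only red point and 14 chains are blue, with Col2a1 farthest left at a ratio of 0.163.

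The 6 collagen IV chains form 3 kinds of trimer. Col4a1 and Col4a2 make the network found in nearly all basement membranes, while Col4a3, Col4a4 and Col4a5 make a more cross-linked one, known from the kidney glomerulus and the lens capsule. Col4a1 had 7664, 7463 and 4096 counts in CTL, HIOP and HIOP_GSK, and Col4a2 had 4211, 4217 and 2276. Both were nearly level between CTL and HIOP, 1.09-fold (1.06 to 1.13) and 1.06-fold (1.02 to 1.11) lower in HIOP, and clearly lowest in HIOP_GSK. Col4a3 had 1412, 590 and 373 counts and was 2.55-fold lower in HIOP (2.31 to 2.81). Col4a4 had 3233, 1998 and 1229 counts and was 1.72-fold lower (1.63 to 1.82), short of the limit on counts but past it with the deposited TPM, at a log2 ratio of -1.03. Col4a5, with 1638, 1396 and 1139 counts, and Col4a6, with 618, 461 and 329, were 1.25-fold (1.16 to 1.34) and 1.43-fold (1.26 to 1.61) lower.

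The genes of each collagen IV pair lie head to head, with start sites that face away from each other. In the RefSeq promoter table of build GRCr8, which holds 42 of the 52 chains, 76 bases separate the start sites of Col4a1 and Col4a2, 412 those of Col4a3 and Col4a4, and 1414 those of Col4a5 and Col4a6. The stretch between Col4a1 and Col4a2, at chr16:84885521-84885596 on the strand of Col4a1, is shown whole because it lies upstream of both genes of the pair with nearly equal ratios, and the 250 bases before Col4a3, at chr9:91323740-91323989 on the plus strand, are shown beside it as part of the wider gap of a pair whose balance shifted. Capitals mark GC boxes (GGGCGG on either strand).
Col4a2 to Col4a1: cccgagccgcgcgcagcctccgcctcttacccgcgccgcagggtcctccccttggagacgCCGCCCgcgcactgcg
Before Col4a3: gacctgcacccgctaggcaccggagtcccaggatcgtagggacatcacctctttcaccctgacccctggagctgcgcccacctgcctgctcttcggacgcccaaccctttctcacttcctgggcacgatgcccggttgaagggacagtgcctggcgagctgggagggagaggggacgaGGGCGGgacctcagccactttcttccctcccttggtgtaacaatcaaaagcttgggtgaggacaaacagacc
Each stretch holds 1 GC box, 16 bases before the Col4a1 start and 72 bases before the Col4a3 start. Among 27457 rat promoters a GC box was found in 19.3% of windows of 76 bases and 32.4% of windows of 250 bases. No CCAAT box (CCAAT), TATA box (TATAAA) or AP-1 site (TGANTCA), searched on both strands, was found in either; these letters occur in 13%, 4.78% and 1.75% of windows of 76 bases, and in 34.3%, 13.1% and 6.36% of windows of 250 bases. A match is a description of letters, not a site of binding.

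The balance within each pair was read from the ratio of its counts inside a library, where gene length cancels between libraries. Col4a1 had 1.82 counts per count of Col4a2 in CTL (1.75 to 1.89), 1.77 in HIOP (1.70 to 1.84) and 1.80 in HIOP_GSK (1.71 to 1.90), so the intervals of all 3 libraries overlapped. Col4a3 had 0.437 counts per count of Col4a4 in CTL (0.410 to 0.465), 0.295 in HIOP (0.269 to 0.324) and 0.303 in HIOP_GSK (0.269 to 0.341), a shift between CTL and the injured libraries beyond counting error. For Col4a5 over Col4a6 the values were 2.65 (2.41 to 2.91), 3.03 (2.72 to 3.37) and 3.46 (3.06 to 3.93), with CTL and HIOP_GSK apart and HIOP overlapping both. Without replicates, such shifts cannot be set against the spread between animals.

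**Figure D3:**
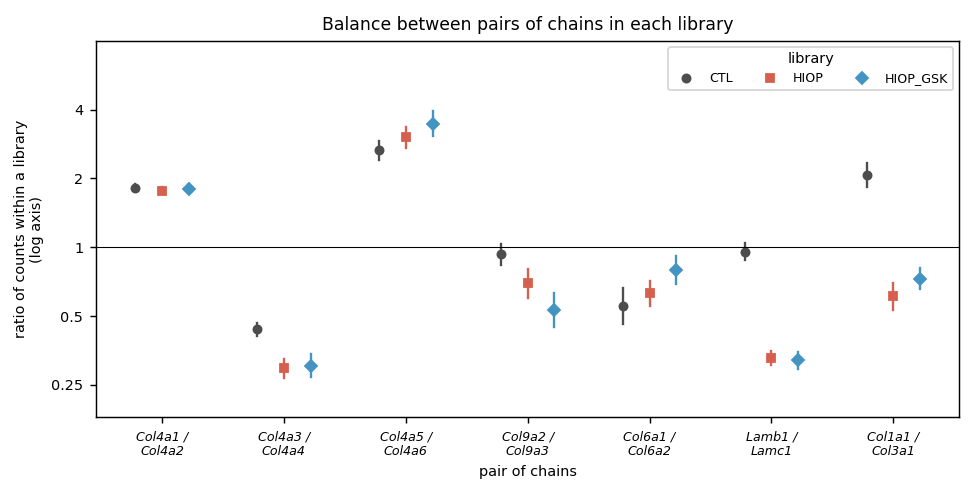
Ratio of the counts of 2 chains within a library (y axis, log scale) for 7 pairs of chains (x axis) in CTL, HIOP and HIOP_GSK, with bars for the 95% counting interval. The Col4a1 to Col4a2 ratio stays between 1.77 and 1.82, whereas Lamb1 to Lamc1 and Col1a1 to Col3a1 are lower in both injured libraries than in CTL.

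Among the laminins, Lamc1 was higher and Lamc3 lower in HIOP than in CTL. Lamc1, the gamma chain of most vascular and retinal laminins, had 1135, 3125 and 2398 counts in CTL, HIOP and HIOP_GSK and was 2.59-fold higher in HIOP (2.42 to 2.77). Lamc3 had 148, 59 and 73 counts and went the other way, 2.67-fold lower (1.96 to 3.67). The low end of the Lamc3 interval lies below 2-fold, while that of Lamc1 lies above it.

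The 250 bases before the Lamc1 start, at chr13:68051987-68052236 on the minus strand, are shown because Lamc1 was called higher. Capitals again mark GC boxes.
Before Lamc1: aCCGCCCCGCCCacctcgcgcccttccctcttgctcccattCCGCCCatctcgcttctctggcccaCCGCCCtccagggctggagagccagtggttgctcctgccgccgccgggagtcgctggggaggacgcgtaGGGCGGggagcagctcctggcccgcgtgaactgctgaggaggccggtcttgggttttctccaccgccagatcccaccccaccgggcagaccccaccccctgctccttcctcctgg
It holds 5 GC boxes, of which the first 2 overlap by 1 base, and no CCAAT, TATA or AP-1 letters as defined above. The share of 32.4% given above is for windows with at least 1 GC box, and how often 5 occur was not counted.

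Alpha chains were closer to level. Lama5, an alpha chain of mature vascular and epithelial basement membranes, had 744, 1350 and 1107 counts and was 1.71-fold higher in HIOP (1.56 to 1.87). Lama4, typical of endothelium, had 476, 477 and 539 counts, and Lama2, typical of muscle and glia, had 183, 192 and 201; the intervals of their HIOP over CTL ratios hold 1. Lama1, an alpha chain of the inner limiting membrane and lens capsule, had 426, 370 and 249 counts and was 1.22-fold lower (1.06 to 1.41). None of the 4 alpha chains was called in any comparison.

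Lamb1 did not follow Lamc1, with which it assembles. Lamb1 had 1085, 1022 and 767 counts, and its ratio to Lamc1 was 0.956 in CTL (0.879 to 1.04), 0.327 in HIOP (0.304 to 0.351) and 0.320 in HIOP_GSK (0.294 to 0.347). Lamb2, the beta chain of synaptic and inner limiting membrane laminins, had 891, 980 and 942 counts and stayed within 1.12-fold in every comparison. Lamb3, a beta chain of epithelial laminin, had 259, 184 and 85 counts and was 1.5-fold lower in HIOP (1.23 to 1.82). Markers of corneal epithelium, a tissue that makes epithelial laminin, were lower in HIOP, with Krt12 at 1950, 56 and 249 counts and Krt5 at 880, 33 and 229; their part in the Lamb3 values was not tested.

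Col18a1, the basement membrane collagen that releases the fragment endostatin, had 1805, 3731 and 2848 counts and was 1.94-fold higher in HIOP (1.84 to 2.06), just short of the limit. Its relative Col15a1 had 7, 11 and 13 counts and was not compared. Endothelial markers summed to 727.7, 526.0 and 640.2 CPM, with 1 of 11 called higher and 1 called lower in HIOP (9.09% each, near the 9.00% and 8.04% of all genes). Kdr alone gave 569.7, 299.3 and 316.4 CPM of these sums. The lower sum in HIOP thus follows that gene. Of the 11 intervals in HIOP over CTL, 5 lay above 1 and 5 below 1. Pericyte and smooth muscle markers summed to 349.9, 172.9 and 201.2 CPM, with 5 of 10 called lower (50%, beside 8.04% of all genes). No marker of either list had a count of 0 in any library, and the part of these cells in the vascular basement membrane genes was not tested.

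The chains of collagens II, XI and IX were lower in HIOP. Col2a1, the chain of the main vitreous and cartilage fibril, had 1435, 249 and 293 counts and was 6.13-fold lower in HIOP (5.35 to 7.04). Col11a1, which nucleates such fibrils, had 4317, 1880 and 1357 counts and was 2.44-fold lower (2.31 to 2.58). Col11a2 had 956, 503 and 290 counts and was 2.02-fold lower (1.81 to 2.26), a call lost with the deposited TPM at a log2 ratio of -0.92. CTL was highest for all 3, by a wide margin for Col2a1. The collagen IX chains decorate the surface of the same fibrils. Col9a1 had 2475, 671 and 657 counts and was 3.92-fold lower in HIOP (3.60 to 4.28). Col9a2, with 692, 325 and 206 counts, was 2.26-fold lower (1.98 to 2.59), and Col9a3, with 744, 468 and 386, was 1.69-fold lower (1.5 to 1.90). The 3 chains of this heterotrimer thus differed in size of change but were all highest in CTL. Optc, the vitreous proteoglycan opticin, had 1350, 912 and 534 counts and was likewise highest in CTL.

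The 250 bases before the Col9a1 start, at chr9:34081114-34081363 on the plus strand, are shown as a contrast in base composition with the stretch before Lamc1.
Before Col9a1: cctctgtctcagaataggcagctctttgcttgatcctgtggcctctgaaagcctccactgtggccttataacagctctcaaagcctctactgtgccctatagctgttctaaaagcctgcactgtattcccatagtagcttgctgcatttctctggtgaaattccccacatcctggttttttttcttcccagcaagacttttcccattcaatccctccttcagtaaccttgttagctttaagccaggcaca
G and C make up 46.8% of this stretch, beside 71.2% before Lamc1, 62.0% before Col4a3 and 78.9% between Col4a2 and Col4a1. Base composition over all promoters was not taken, and a link between it and the ratios was not tested. None of the 4 motifs was found in it.

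The fibrillar chains of sclera, cornea and vessel walls were mixed. Col1a1, the main chain of collagen I, had 821, 346 and 639 counts and was 2.52-fold lower in HIOP (2.22 to 2.87). Its partner Col1a2 is listed at 0 counts and 0 TPM in all 3 libraries; a partner at 0 beside the Col1a1 counts leaves the listing of that gene uncertain, and no level is read from it. Col3a1, the collagen III chain of vessels and loose tissue, had 398, 568 and 876 counts and was 1.34-fold higher (1.18 to 1.53). Col1a1 over Col3a1 was 2.06 in CTL (1.83 to 2.33), 0.609 in HIOP (0.531 to 0.697) and 0.729 in HIOP_GSK (0.658 to 0.809). The markers of corneal stroma, a tissue rich in collagen I, summed to 454.0, 303.0 and 360.9 CPM. Dcn gave 74.1, 43.0 and 67.2 CPM of these sums and Lum 13.6, 3.21 and 6.57. Most of each sum came from Aldh1a1, Ptgds and Angptl7, whose cell source was not tested. In HIOP over CTL 2 of 6 stroma markers were called lower and none higher (33.3%, beside 8.04% of all genes). Among these markers, Kera had 59, 0 and 1 counts and Lum had 219, 55 and 100. Their part in the Col1a1 values was not tested.

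Collagen V chains, which set fibril diameter, went different ways. Col5a3 had 6434, 12297 and 9043 counts and was 1.80-fold higher in HIOP (1.74 to 1.85). Col5a1 had 812, 966 and 802 counts, 1.12-fold higher (1.02 to 1.23) but level by the deposited TPM (10.2, 9.99 and 9.58), and Col5a2 had 334, 274 and 305, 1.3-fold lower (1.10 to 1.53). Col5a3 was lowest in CTL, where the other chains of its class had their highest sum. Summed TPM of the 35 non-basement membrane collagens was 353, 265 and 260, and without Col5a3 it was 273, 140 and 155. Col27a1, with 1363, 796 and 882 counts, was 1.82-fold lower in HIOP (1.67 to 1.99), and Col24a1, with 119, 56 and 80, was 2.26-fold lower (1.63 to 3.16).

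**Figure D4:**
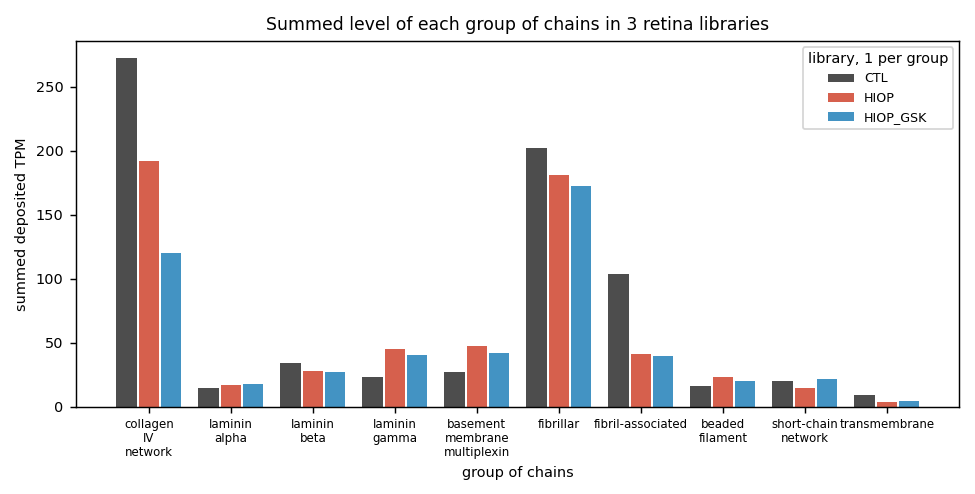
Summed deposited TPM (y axis, from 0) of the chains of each role group (x axis) in CTL, HIOP and HIOP_GSK, 1 bar per library, of the 52 chains described without the anchoring fibril chain Col7a1 and the ungrouped chains Col26a1 and Col28a1. Collagen IV is at 272 in CTL, 192 in HIOP and 120 in HIOP_GSK, Lamc1 and Lamc3, summed as laminin gamma, are highest in HIOP at 45.5, and fibril-associated collagens are at 104 in CTL against 41.1 and 39.6.

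Other fibril-associated collagens, which link fibrils to their surroundings, were lower or level in HIOP. Col22a1, known from tissue junctions, had 401, 117 and 120 counts and was 3.65-fold lower (2.96 to 4.52). Col14a1 had 112, 37 and 41 counts and was 3.22-fold lower (2.20 to 4.80). Col16a1 had 299, 171 and 205 counts, 1.86-fold lower (1.54 to 2.26). Col12a1, with 613, 648 and 720 counts, and Col20a1, with 294, 363 and 307, had intervals that hold 1. Col19a1 had 25, 9 and 20 counts; it was called lower in HIOP on counts, 2.95-fold (1.33 to 7.19). Its deposited TPM of 0.29, 0.11 and 0.19 gave a similar 2.64-fold, but lies below the pseudocount of 0.5, with which the log2 ratio was -0.37 and the call was lost.

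Membrane-spanning collagens fell into a neuronal and an epithelial example. Col25a1, a neuronal membrane collagen, had 240, 53 and 85 counts and was 4.82-fold lower in HIOP (3.56 to 6.61), with a TPM log2 ratio of -1.40 beside -2.22 on counts. Col17a1, which anchors basal epithelial cells through hemidesmosomes, had 259, 75 and 165 counts and was 3.67-fold lower (2.83 to 4.81). Col17a1 was thus lowest in HIOP, as were Krt12 and Krt5, the corneal keratins whose counts are given above. Col13a1 had 95, 74 and 47 counts. Col23a1 is listed at 0 in all libraries.

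Beaded filament, anchoring and short-chain collagens included none that was called. Col6a1 had 193, 402 and 348 counts and was 1.96-fold higher in HIOP (1.65 to 2.34), and its partner Col6a2 had 349, 639 and 437, 1.72-fold higher (1.51 to 1.97). Col6a5, with 272, 161 and 139 counts, was 1.80-fold lower (1.47 to 2.20), so the collagen VI chains did not move as a set. Col7a1, the anchoring fibril collagen, had 106, 137 and 118 counts, with an interval that holds 1. Col8a1, of Descemet's membrane and vessel walls, had 655, 619 and 742 counts, and Col8a2 had 383, 235 and 379, 1.73-fold lower in HIOP (1.47 to 2.05). The remaining genes Col6a4, Col6a6, Col10a1, Col26a1 and Col28a1 had at most 24 counts in any library.

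The comparison of HIOP_GSK with HIOP sets injured retina given the drug beside injured retina that was not. Few chains passed the 2-fold limit. Lamb3 and the collagen IV chains were lower in HIOP_GSK, and Col17a1, Col1a1, Col8a2 and Col3a1 were higher. Of the 45 chains, 3 were called higher (6.67% of the chains), beside 4.56% of all genes, and none was called lower, beside 1.69%. Their median log2 ratio was -0.04, and counting error left 14 with an interval above 1 and 17 with an interval below 1. The basement membrane chains had a median of -0.23 and the other collagens one of 0.20; the medians of all genes were 0.

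Lamb3 was 1.92-fold lower (1.48 to 2.52), short of the limit. Corneal epithelium markers went the other way here, with 9 of 11 called higher (81.8%, beside 4.56% of all genes). Their part in the Lamb3 values was not tested. The collagen IV pair followed, with Col4a1 1.62-fold lower (1.56 to 1.68) and Col4a2 1.65-fold lower (1.56 to 1.73). Col4a3 was 1.41-fold (1.23 to 1.60) and Col4a4 1.45-fold lower (1.35 to 1.55), and the intervals of all 6 collagen IV chains lay below 1. Lens markers, whose tissue is wrapped in a collagen IV capsule, were far higher in HIOP_GSK, as given above, while the collagen IV chains were lower; the part of lens tissue in the collagen IV values was not tested.

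The 3 chains called higher were Col17a1, Col1a1 and Col19a1. Col17a1 was 2.48-fold higher in HIOP_GSK (1.87 to 3.30) and Col1a1 2.08-fold (1.82 to 2.38), both with a low end under 2-fold. Col19a1, at 9 and 20 counts, was 2.5-fold higher (1.09 to 6.24), and 1.73-fold higher by the deposited TPM, or 0.18 on the log2 scale with the pseudocount of 0.5. Col8a2 was 1.81-fold (1.54 to 2.14) and Col3a1 1.74-fold higher (1.56 to 1.93). Col25a1 was 1.80-fold higher on counts (1.27 to 2.59) but only 1.12-fold by the deposited TPM. Corneal epithelium markers were higher in the same comparison, Krt5 7.81-fold (5.40 to 11.6) and Krt12 5.002-fold (3.73 to 6.81). Fibroblast markers summed to 158.4, 172.3 and 253.4 CPM, and share Dcn and Lum with the corneal stroma list. In HIOP_GSK over HIOP 4 of 9 were called higher and none lower (44.4%, beside 4.56% of all genes). In HIOP over CTL they were split, with 2 called higher and 3 lower (22.2% and 33.3%, beside 9.00% and 8.04%). The part of these tissues in the Col17a1, Col1a1 and Col3a1 values was not tested.

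**Figure D5:**
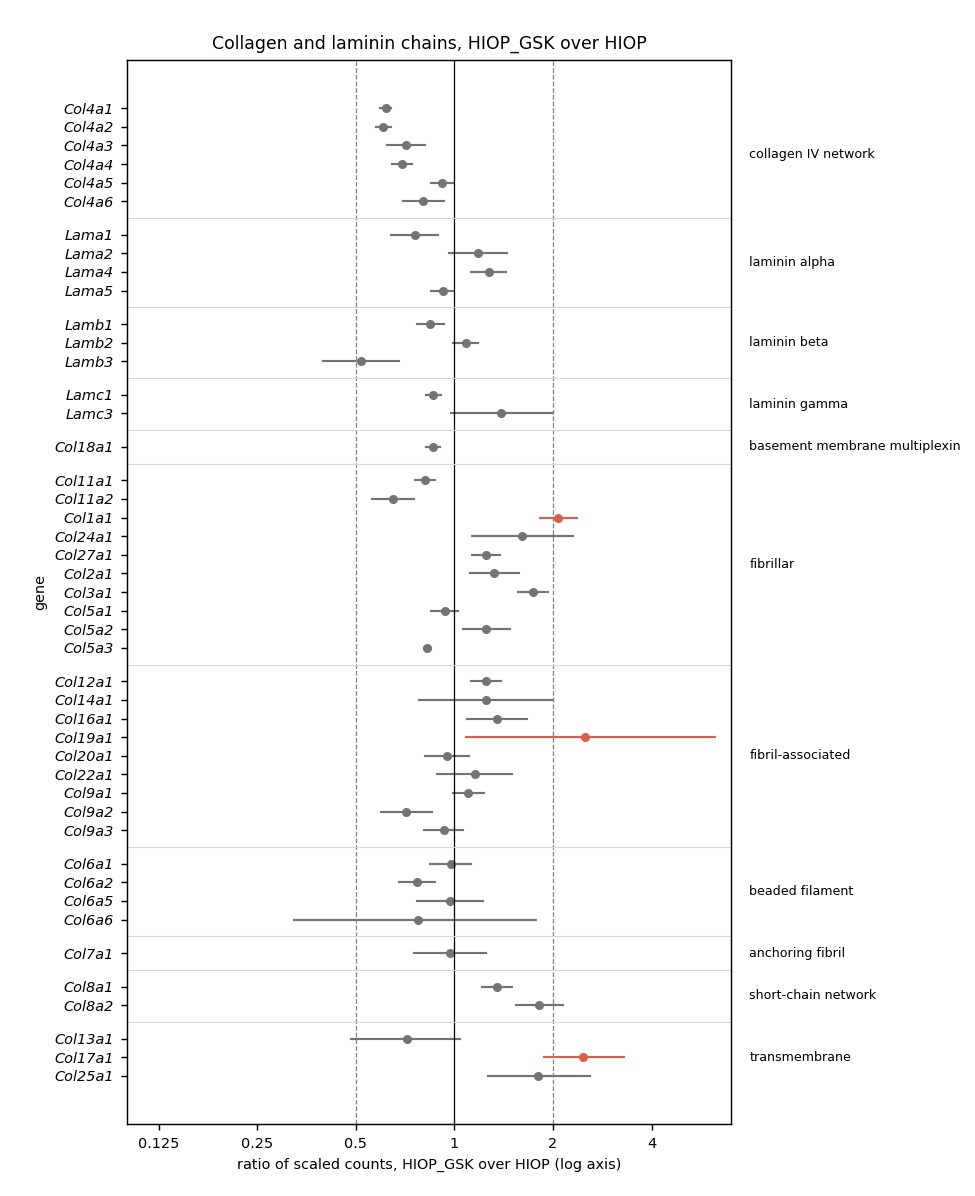
Ratio of scaled counts in HIOP_GSK over HIOP (x axis, log scale) for the 45 compared chains (y axis, grouped by role), with points for the ratio and bars for the 95% counting interval; red marks chains called higher, blue chains called lower, grey the rest, and dashed lines mark 2-fold. No chain is blue, and all 6 collagen IV chains lie left of 1.

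HIOP_GSK was also set against CTL, a comparison that shares a library with each of the others and so is not independent of them. Here 2 chains were called higher, beside 10.4% of all genes, and 11 were called lower (24.4% of the chains), beside 6.32%. The higher chains were Col3a1, 2.33-fold (2.07 to 2.63), and Lamc1, 2.23-fold (2.08 to 2.40); the Lamc1 log2 ratio with the deposited TPM was 0.90, short of the limit. Of the basement membrane, Col4a3 was 3.58-fold lower (3.19 to 4.02), Lamb3 2.88-fold lower (2.25 to 3.73) and Col4a4 2.49-fold lower (2.33 to 2.66; log2 ratio -1.91 with the deposited TPM beside -1.31 on counts). Col4a1 and Col4a2 were 1.77-fold (1.70 to 1.84) and 1.75-fold lower (1.66 to 1.84).

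The chains of collagens II, XI and IX were lower than in CTL in this library too. Col2a1 was 4.63-fold (4.08 to 5.27), Col9a1 3.56-fold (3.27 to 3.89), Col9a2 3.18-fold (2.71 to 3.73), Col11a2 3.12-fold (2.73 to 3.57) and Col11a1 3.01-fold lower (2.83 to 3.20), all called. Col9a3 was 1.82-fold lower (1.61 to 2.07) and was not called, and Col5a3 was 1.49-fold higher (1.44 to 1.54). Col22a1 was 3.16-fold lower (2.57 to 3.91), Col25a1 2.67-fold lower (2.08 to 3.46) and Col14a1 2.58-fold lower (1.79 to 3.79). Col1a1 and Col17a1, in contrast, were not called, at 1.21-fold (1.09 to 1.35) and 1.48-fold lower (1.22 to 1.81).

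Genes that make, join, bind and cut these proteins were taken from lists by function. In the list of collagen folding and modification enzymes, 3 of 18 genes were called higher and 1 lower in HIOP over CTL (16.7% and 5.56%, beside 9.00% and 8.04% of all genes; median log2 ratio 0.30). Creb3l1, a transcription factor of collagen secretion, was 2.76-fold higher (2.14 to 3.60), Fkbp10 2.22-fold (1.79 to 2.77) and the lysyl hydroxylase Plod3 2.07-fold higher (1.82 to 2.37), while the galactosyltransferase Colgalt2 was 4.17-fold lower (3.16 to 5.58). In HIOP_GSK over HIOP none of the 18 was called, beside 4.56% of all genes called higher and 1.69% lower. Serpinh1, the collagen chaperone, had 943, 1076 and 1360 counts.

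For processing and cross-linking, 1 of 11 genes was called higher and 3 lower in HIOP over CTL (9.09% and 27.3%, beside 9.00% and 8.04% of all genes; median -0.17). The lysyl oxidase gene Lox had 467, 220 and 324 counts and was 2.26-fold lower (1.92 to 2.66), and the procollagen proteases Adamts3 and Adamts2 were 2.07-fold (1.92 to 2.24) and 2.55-fold lower (1.70 to 3.90). Loxl4 had 12, 95 and 24 counts and was 7.44-fold higher in HIOP (4.07 to 14.9) and then 3.52-fold lower in HIOP_GSK (2.23 to 5.76). Bmp1, which trims collagen I, II and III precursors, had 227, 357 and 526 counts.

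Partners of the basement membrane had none of 14 called higher and 4 called lower in HIOP over CTL (28.6%, beside 8.04% of all genes; median -0.39). The epithelial adhesion genes Frem2, Frem1 and Fras1 were 5.54-fold (4.04 to 7.75), 2.84-fold (2.49 to 3.24) and 2.58-fold lower (2.29 to 2.90). The fourth gene called lower was the integrin ligand Npnt, with 161, 76 and 49 counts. In HIOP_GSK over HIOP none of the 14 was called, beside 4.56% of all genes called higher and 1.69% lower. Of the nidogens, which join laminin to collagen IV, Nid1 had 2026, 2360 and 1768 counts and Nid2 had 707, 380 and 386. Among collagen and laminin receptors 2 of 14 were called higher and none lower in HIOP over CTL (14.3%, beside 9.00% of all genes; median -0.10). They were Itgb1, the shared integrin beta chain, 3.86-fold (3.65 to 4.10), and Itga3, an alpha chain of laminin-binding integrin, 2.08-fold (1.94 to 2.23). None of the 14 receptors was called in HIOP_GSK over HIOP, beside the same shares of all genes. The proteoglycan Sdc1 came closest there at 1.96-fold higher (1.65 to 2.32).

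Of 15 small leucine-rich and fibril-binding genes, 2 were called higher and 3 lower in HIOP over CTL (13.3% and 20%, beside 9.00% and 8.04% of all genes; median -0.48). In HIOP_GSK over HIOP 3 were higher and 1 lower (20% and 6.67%, beside 4.56% and 1.69%; median 0.43). The matrix proteins Thbs1 and Thbs2 were 9.03-fold (8.0 to 10.2) and 4.61-fold higher in HIOP (3.95 to 5.40). In HIOP_GSK over HIOP, Thbs1 was a further 2.21-fold higher (2.11 to 2.31) and Thbs2 2.31-fold lower (2.05 to 2.62). Biglycan, Bgn, had 330, 448 and 819 counts. Collagen-cleaving enzymes had 5 of 7 called higher and none lower in HIOP over CTL (71.4%, beside 9.00% of all genes), and 1 higher and 2 lower in HIOP_GSK over HIOP (14.3% and 28.6%, beside 4.56% and 1.69%). Mmp14, a membrane collagenase, had 649, 1570 and 1173 counts, and Mmp13, a secreted collagenase, had 10, 58 and 14. Mmp3, the stromelysin that cuts many matrix proteins, had 1, 4551 and 2014 counts, the neutrophil collagenase Mmp8 had 0, 143 and 65, and the gelatinase Mmp9 had 11, 162 and 457. All 5 were lowest in CTL, and Mmp9 alone of them was highest in HIOP_GSK.

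Transforming growth factor beta is a known inducer of collagen genes, and its list had 2 of 16 genes called higher and none lower in HIOP over CTL (12.5%, near the 9.00% of all genes; median 0.08). Tgfb1, the ligand gene, had 95, 389 and 358 counts and was 3.85-fold higher (3.07 to 4.87), and the matricellular target gene Cyr61 was 5.96-fold higher (4.90 to 7.29). Tgfb2, the most counted ligand in these libraries, had 2730, 2607 and 2397 counts. In HIOP_GSK over HIOP only Tgfbi was called in this list (6.25%, near the 4.56% of all genes called higher). Tgfbi had 79, 78 and 438 counts and was 6.32-fold higher (4.96 to 8.15).

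Glial markers, which include those of the cells that border the inner limiting membrane, moved as well. Müller glia markers summed to 4697, 2645 and 3275 CPM. Of 10, 6 were called lower and 1 higher in HIOP over CTL (60% and 10%, beside 8.04% and 9.00% of all genes). Astrocyte markers summed to 634.9, 388.9 and 494.1 CPM, with 2 of 4 called lower in HIOP over CTL (50%, beside 8.04%). The 2 were S100b and Aqp4, of which Aqp4 is also in the Müller glia list. Gfap was level in HIOP over CTL, at 1.04-fold (0.929 to 1.17). In HIOP_GSK over HIOP 2 of 4 were called higher and none lower (50%, beside 4.56%), with Gfap 4.33-fold higher (3.97 to 4.73). Cone markers summed to 470.1, 154.9 and 126.4 CPM with 6 of 8 called lower in HIOP over CTL (75%, beside 8.04%). Markers of corneal endothelium, which makes the collagen VIII of Descemet's membrane, summed to 989, 1102 and 1074 CPM. In HIOP over CTL 1 of 5 was called lower and none higher (20%, beside 8.04%). Cell cycle genes summed to 81.3, 121 and 245.7 CPM, with 10 of 16 called higher in HIOP_GSK over HIOP (62.5%, beside 4.56% of all genes). The part of each of these in the chain values was not tested.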

How the data were processed

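Total RNA of 3 retina samples was depleted of ribosomal RNA and made into directional libraries, per the labels' protocols. The build Rnor_6.0 and the tools RSEM 1.3.1 and STAR 2.5.4b come from the submitters' processing notes, which do not say what each was used for. Counts were deposited as whole, unnormalized numbers for each gene. The TPM values deposited by the authors are scaled per gene length to the same sum in every library. Whether counting used strand is not given in the sources used here; overlapping and antisense genes are uncertain. The 2 units come from different quantifications, since genes listed at 0 TPM despite 20 or more counts numbered 566 (CTL), 545 (HIOP) and 503 (HIOP_GSK).

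Counts were scaled with TMM factors of edgeR 4.0.16 (R 4.3.3), 1.000, 0.994 and 1.006. The 15543 genes that reached 1 CPM somewhere were compared. Log2 ratios used a prior count of 2, and calls a limit of 2-fold. Ratios of named genes have no prior and carry exact Clopper-Pearson intervals at 95% (SciPy 1.17.1). With 1 library per group no test across libraries was made. The functions were tested on simulated counts.

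Of the genes that met the rule, 1 chain is not reported here and is left out of all counts and sums of chains. The genes and lists were chosen with earlier results of these data known. The 20 lists held 235 distinct genes, 224 matched by symbol, 3 by a RefSeq synonym and 8 not analysed here. By rule, chains with at least 100 counts in a library (42 of 52) are given with all counts, and lists by up to 4 genes per comparison whose nearer interval bound lies farthest from a ratio of 1. Optc, Tgfb2 and Mmp14 fall outside that rule and were named after their values were seen. Promoter sequences are from RefSeq, build GRCr8; the files' own build has no coordinates here. Alternatives were total counts, DESeq2 1.42.0 size factors, TMM without mitochondrial and the 20 most abundant genes, TPM as deposited (pseudocount 0.5), no filter, CPM of at least 5, prior counts of 0.5 and 10, and a limit of 1.5-fold.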

Additional observations from a re-analysis of the deposited data

How the results depend on the processing

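No paired analysis was possible because each group has 1 library. Under total counts, DESeq2 size factors, and TMM without mitochondrial and the 20 most abundant genes, the counts of chains called were those reported: 1 higher and 14 lower for HIOP against CTL, 3 and 0 for HIOP_GSK against HIOP, and 2 and 11 for HIOP_GSK against CTL. A limit of 1.5-fold raised them to 6 higher and 21 lower, 7 and 4, and 5 and 20. With the deposited TPM 1 chain was called higher in HIOP_GSK over CTL in place of 2, as Lamc1 missed the limit, and 12 were called lower in place of 11, with Col4a6 added at a log2 ratio of -1.04; 13 were called lower in HIOP over CTL in place of 14, and 2 higher in HIOP_GSK over HIOP in place of 3. Without the filter 1 chain was called lower in HIOP_GSK over HIOP, namely Col10a1, with 6 and 1 counts. No filter, a CPM of at least 5 and prior counts of 0.5 and 10 moved each count of calls by at most 1. Of the ratios and medians, 48 moved by more than their counting interval under an alternative, 41 of them with the deposited TPM, and none of those past 2-fold changed direction. Depth limits Col19a1. Its call in HIOP over CTL was lost under the deposited TPM, a CPM of at least 5 and a prior count of 10. Depth also limits those of the 7 chains not compared that had counts. For Col1a2 and Col23a1, listed at 0 in all libraries, whether depth was the limit was not tested.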
